A study of Mus musculus with 32 samples.

Results

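The messenger RNAs of the cytosolic ribosomal proteins were followed through RiboTag precipitations and microglial sorts of mouse brain. Members were the rows of the exon count table whose symbol is Rpl or Rps, a number and at most one of the letters a, s, l or x, together with Rplp0, Rplp1, Rplp2 and Rpsa. Rpl22 was left out because the tagged protein is made from it. The rule found 81 of the 24411 genes in the table, of which 46 are named for the large subunit, 32 for the small subunit and 3 for the P stalk. The rows of Rps27 and Rps4l carry RefSeq identifiers of the non-coding RNA class.

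The brains came from 4 Sall1-CreER mice and 4 Cx3cr1-CreER mice, all C57BL/6 with the RPL22-HA allele and all given 5 mg of tamoxifen by gavage 4 times, every other day, when 4 to 6 weeks old. In RiboTag mice a Cre recombinase adds an HA epitope to RPL22, so that ribosomes of the recombined cells and the RNA bound to them can be precipitated. Cre was driven by Sall1, a transcription factor gene of microglia, in one line and by Cx3cr1, the fractalkine receptor gene of microglia and other macrophages, in the other. Each brain gave 4 libraries of polyadenylated RNA. The HA library was precipitated with anti-HA from homogenate made with cycloheximide. The SortIP library was precipitated with anti-HA from sorted microglia, the Sort library was sorted microglia without precipitation, and the IgG library was a mouse IgG1 control precipitation from homogenate. The controls thus carried the same alleles and received the same tamoxifen, and there was no group without Cre. The p-values below measure the spread between mice.

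For all 8 sorted Cx3cr1 libraries the title and antibody label name the opposite of what the description and the column name say. Groups here follow the titles. Counts of members called in HA over SortIP, and the values of members called in SortIP over Sort, are also given by description. The comparison of sorted microglia between lines uses sums of both sorted libraries of a mouse. Other values of these libraries, among them those of single members in HA over SortIP, are given by title only. The libraries held from 249881 to 4047465 gene counts, the least in a Sall1 SortIP library and the most in a Sall1 IgG library, and the Cx3cr1 HA libraries held 286418 to 574671. A list of 10 microglial markers took 0.487% ± 0.0526 of counts in Sall1 HA, against 0.0770% ± 0.0107 in Sall1 IgG, and 7.27% ± 0.675 in Cx3cr1 HA, against 0.0991% ± 0.0129 in Cx3cr1 IgG (SD, n = 4 each). In the sorted groups that list took 4.86% to 6.95% of counts on average. Astrocyte markers took 0.814% ± 0.114 in Sall1 HA against 0.311% ± 0.0109 in Sall1 IgG, and oligodendrocyte markers 0.892% ± 0.121 against 0.431% ± 0.0593. The astrocyte list stood at 0.0696% ± 0.0109 in Cx3cr1 HA, below 0.327% ± 0.0393 in Cx3cr1 IgG. Border macrophage markers made up 0.00217% ± 0.000485 of Sall1 HA counts and 0.0680% ± 0.00907 of Cx3cr1 HA counts. The Sall1 HA libraries thus held less of the microglial and border macrophage lists and more of the macroglial lists than the Cx3cr1 HA libraries, and the part of this in the member results below was not tested.

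Ribosomal proteins build the small subunit, which reads the mRNA, and the large subunit, which joins amino acids. The P stalk on the large subunit recruits elongation factors. Their mRNAs are short and abundant, and many begin with a C and a run of pyrimidines, the 5′ terminal oligopyrimidine (TOP) tract through which mTOR signalling controls their translation. A TOP mRNA can sit in polysomes or outside them, so its share of ribosome-bound RNA need not follow its level. In bulk samples fewer cells of a type and less RNA per cell cannot be told apart.

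Transcript starts of 60 members were found in RefSeq's mouse promoter table (GRCm38.p6). A C at the annotated start followed by at least 4 bases that are each C or T, on the transcript strand, was present in 14 of the 60 (23.3%), against 3.01% of 27025 genes and 0 of 69 mitochondrial ribosomal protein genes. Allowing the tract to begin within 5 bases of the start gave 29 of 60 members (48.3%), 21.2% of all genes and 24.6% of the mitochondrial set. No other motif was searched. The windows below are 30 bases each with the annotated start at base 16, read along the transcript, and the capitals mark the tract. They are shown because these members include the ones that rose and the ones that fell in the precipitates.
Rps9, which rose in both lines (chr7:3704026-3704055, plus strand): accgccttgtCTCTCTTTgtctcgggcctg
Rpl14, which rose in both lines (chr9:120571502-120571531, plus strand): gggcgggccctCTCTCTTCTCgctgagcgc
Rplp2, of the P stalk (chr7:141447636-141447665, plus strand): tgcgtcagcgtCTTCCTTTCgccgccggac
Rps27l, a paralog of Rps27 (chr9:66946071-66946100, plus strand): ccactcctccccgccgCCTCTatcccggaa
Rps15a, which fell in both lines (chr7:118116133-118116162, minus strand): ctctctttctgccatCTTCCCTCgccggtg
Rpl39, which fell in the Sall1 line (chrX:37085208-37085237, minus strand): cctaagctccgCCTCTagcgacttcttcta
Rps4x, with no tract in the window (chrX:102189377-102189406, minus strand): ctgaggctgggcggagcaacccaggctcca
Tracts were thus printed for members that rose and for members that fell, and the absence of one says only that these letters are not in this window.

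The members had a median transcript length of 696 bases against 2107 for all genes, and 80 of the 81 were shorter than that overall median. Their median GC content was 51.78% against 49.32%. Ribosomal protein genes have many processed copies: 78 members shared at least one 50-base stretch with another gene of the annotation, and a median of 51.69% of a member's stretches were shared. The treatment of reads that map to several places and the strand setting are not given in the sources used here, so the levels of these members are uncertain. Only 8 members shared under 10% of their stretches. Filtering on low counts left 68 members in all 11 comparisons and 8 in some of them. Rpl10l, Rpl28, Rpl39l, Rpl3l and Rps23 passed in none.

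Members took more of the counts in HA libraries than in IgG libraries of both lines. Their share was 2.34%, 2.29%, 2.38% and 2.36% in the Sall1 HA libraries of mice 17, 21, 7 and 9, against 1.31%, 1.40%, 1.74% and 1.41% in the IgG libraries of the same mice. It was 2.60%, 2.77%, 3.12% and 2.85% in the Cx3cr1 HA libraries of mice 1 to 4, against 1.43%, 1.30%, 1.31% and 1.38% in IgG. Every HA library lay above every IgG library, and every Cx3cr1 HA library lay above every Sall1 HA library. The sorted groups averaged 2.26% ± 0.290 in Sall1 SortIP and 2.25% ± 0.206 in Sall1 Sort, and 1.91% ± 0.258 in Cx3cr1 SortIP and 1.85% ± 0.234 in Cx3cr1 Sort by title (SD, n = 4 each). SortIP and Sort thus differed by less than their spread in each line. The P stalk mRNAs alone made up 0.385% ± 0.0268 of Sall1 HA counts, where the Sall1 IgG average was 0.197%, and 0.546% ± 0.0948 of Cx3cr1 HA counts, where the Cx3cr1 IgG average was 0.185%.

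**Figure D1:**
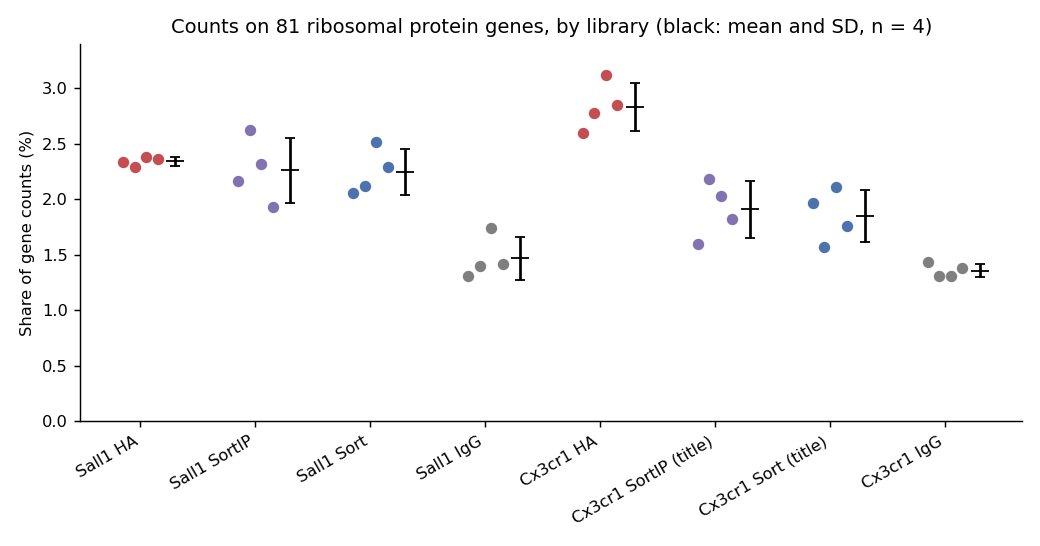
Share of gene counts on the 81 members, in percent on the vertical axis, for each of the 32 libraries by group, with bars for the mean and SD of 4 libraries. The Cx3cr1 HA libraries, at 2.60% to 3.12%, lie above all Sall1 HA libraries, and both IgG groups lie at or below 1.74%.

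The order of the members by level was much the same in every group. Spearman's rho between group mean levels ran from 0.883 to 0.996 over the 81 members, as a description of values that share library preparation and gene length. Rplp1, a P stalk protein gene (mm9 chr9:61761090-61762317), led in all 8 groups with 10.84% to 16.25% of the summed member level in counts per 1000000 gene counts (CPM). In both HA groups 7 members made up 50% of that sum, against 9 to 11 members in the other groups. Per kilobase of transcript the highest level was that of Rplp1 as well, at 9949 CPM per kb in Cx3cr1 HA and 7171 CPM per kb in Sall1 HA. The median coefficient of variation between mice was 14.78% in Sall1 HA and 25.71% in Cx3cr1 HA, the shallowest group of homogenate libraries.

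The precipitation with anti-HA was compared with the IgG control in each line, with edgeR's quasi-likelihood test on TMM-scaled counts and Benjamini-Hochberg adjustment over all genes tested. In the Sall1 line 50 of 74 tested members rose and 6 fell, beside 35.2% of all genes called higher and 36.1% called lower. Of 71 Cx3cr1 members tested 53 rose and 2 fell, beside 28.6% and 36.0% of all genes. The median log2 fold change of the members was 0.91 in the Sall1 line, where that of all genes was -0.03, and 1.16 in the Cx3cr1 line, where that of all genes was -0.28. HA and IgG levels did not overlap for 30 higher members (22.3% of all genes) and 10 lower members (41.8% of all genes) in the Sall1 line. Cx3cr1 levels did not overlap for 35 higher members (19.0% of all genes) and 4 lower members (41.6% of all genes). Among 71 members tested in both lines, 41 rose in both and 1 fell in both, and the share of all genes doing so was not counted. Without any scaling beyond library size the all-gene medians moved to -0.44 and -0.70, and the members called became 36 higher and 12 lower in the Sall1 line and 38 higher and 6 lower in the Cx3cr1 line. Calls over all genes under fits other than the TMM-scaled edgeR test, here and below, are not given beside the members' counts. Fold changes below are relative to the TMM scale, so a member with like raw CPM in both groups can carry a positive fold change.

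Transcript length moved with these results. In the Sall1 line the other genes of the shortest 10%, below 1157 bases, had a median log2 fold change of 1.37, and the members in that length class had 0.99. Only 26 of 74 members lay above the median of their own 10% length class in that line. In the Cx3cr1 line the other genes of the shortest 10%, below 1170 bases, had 0.72, the members in it 1.30, and 51 of 71 members lay above the median of their class. With a length trend removed and the mouse as a block, 10 Sall1 members were called higher and 35 lower, and their median was -0.43. The same fit gave 34 higher and 11 lower in the Cx3cr1 line and a median of 0.42. Relative to genes of like length the Sall1 direction thus turned and the Cx3cr1 direction did not. Calls over all genes under fits with a length trend, here and below, are not given beside the members' counts.

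**Figure D2:**
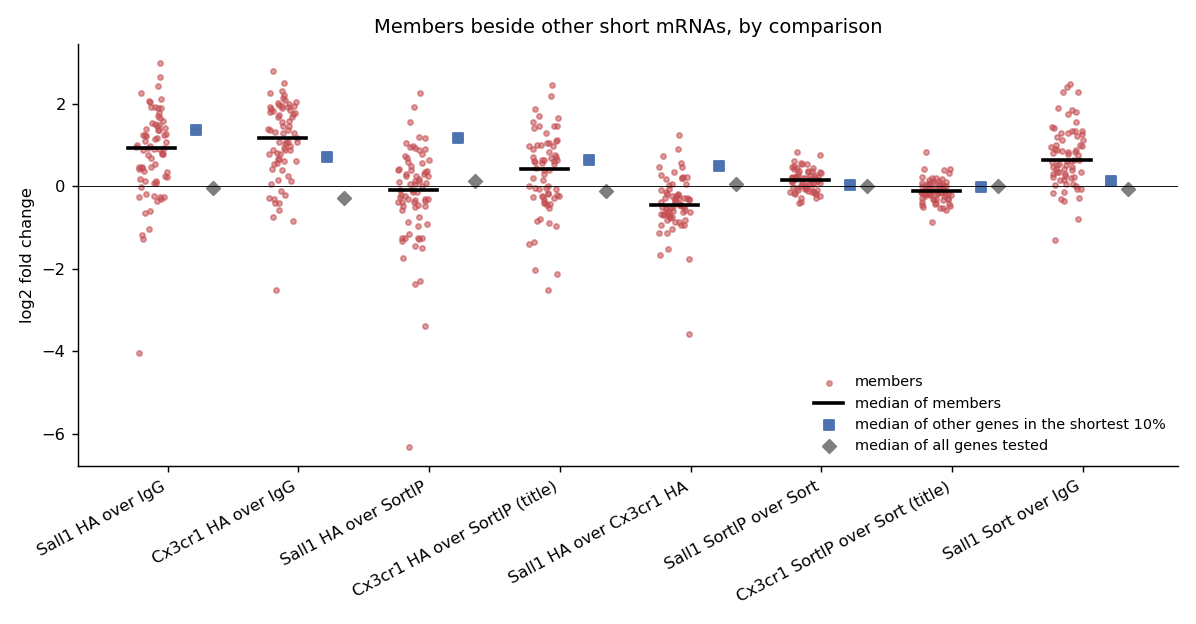
Log2 fold change of each member in 8 comparisons on the vertical axis, with the members' median as a line, the median of other genes in the shortest 10% by transcript length as a square and the median of all genes tested as a diamond. In Sall1 HA over IgG the other genes of the shortest 10% lie above the members, with a median of 1.37 beside 0.91, and in Cx3cr1 HA over IgG they lie below, with 0.72 beside 1.16.

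The 3 P stalk mRNAs rose in both lines. Rplp1 stood at 3388, 2883, 3571 and 3438 CPM in the Sall1 HA libraries of mice 17, 21, 7 and 9, against 1325, 1598, 1955 and 1482 in IgG, a log2 fold change of 1.46 ± 0.16 (SE, adjusted p = 2.02e-07). It stood at 3687, 3922, 5506 and 5310 CPM in the Cx3cr1 HA libraries of mice 1 to 4, against 1433, 1669, 1343 and 1548 in IgG, a log2 fold change of 2.02 ± 0.18 (adjusted p = 1.09e-07). The groups did not overlap in either line. Rplp2, its partner in the stalk, rose by 1.37 ± 0.22 in the Sall1 line and by 1.90 ± 0.20 in the Cx3cr1 line on the log2 scale. Rplp0, the protein that anchors the stalk, rose by 0.79 ± 0.15 and 1.67 ± 0.21, and its Sall1 HA and IgG levels overlapped. With the length trend removed and the mouse as a block the Sall1 values were 0.01 for Rplp0, -0.19 for Rplp1 and -0.36 for Rplp2.

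Of the small subunit, 20 of 31 tested members rose and 2 fell in the Sall1 line, and 24 of 30 rose and 1 fell in the Cx3cr1 line. Of all genes 35.2% were called higher and 36.1% lower in the Sall1 line, and 28.6% and 36.0% in the Cx3cr1 line. Rps9, a protein of early small subunit assembly (mm9 chr7:3655643-3658499), stood at 826, 905, 1068 and 865 CPM in the HA libraries of the Sall1 line, against 296, 274, 331 and 225 CPM in IgG. Its levels in Cx3cr1 HA were 1462, 1542, 1695 and 1892 CPM, against 328, 296, 299 and 337 CPM in IgG. The groups were far apart in both lines, with log2 fold changes of 2.11 ± 0.17 (adjusted p = 6.76e-09) and 2.79 ± 0.17 (adjusted p = 1.07e-09). Rps27l, the p53-inducible paralog of Rps27, rose by 2.98 ± 0.22 in the Sall1 line, the highest value there among members, and by 2.25 ± 0.30 in the Cx3cr1 line. Rps4l, a second Rps4 gene whose row is annotated as non-coding RNA, rose by 1.58 ± 0.17 and 1.81 ± 0.22. Rps3, a protein at the mRNA entry channel, rose by 0.87 ± 0.15 and 1.45 ± 0.17, and Rps19, a gene mutated in Diamond-Blackfan anaemia, by 1.24 ± 0.30 and 1.74 ± 0.39. Rps14, which lies on the platform of the subunit, rose by 0.46 ± 0.18 (adjusted p = 0.0254) in the Sall1 line and by 0.97 ± 0.23 in the Cx3cr1 line. That Sall1 call was lost without HA replicate 7 (0.41) or without IgG replicate 17 (0.43), 21 (0.40) or 9 (0.33). With a length trend removed and the mouse as a block, the Sall1 signs of Rps19 and Rps14 turned, as given below.

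Rps15a fell in both lines. It stood at 24.7, 27.1, 11.6 and 20.99 CPM in the HA libraries of the Sall1 line, against 54.9, 47.6, 76.7 and 56.1 CPM in IgG, a log2 fold change of -1.03 ± 0.24 (adjusted p = 0.00104). Cx3cr1 HA libraries held it at 27.8, 36.7, 27.5 and 6.98 CPM, against 59.5, 64.4, 51.1 and 68.2 CPM in IgG. The groups did not overlap in either line, and the Cx3cr1 value was -0.85 ± 0.32 (adjusted p = 0.0286). That call was lost without HA replicate 1 (-0.92), 3 (-0.89) or 4 (-0.60). The gene model of Rps15a is 5127 bases long, where most members are under 1000.

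Rps4x, an X-linked protein of the small subunit, stood at 11.5, 15.9, 9.50 and 15.0 CPM in the HA libraries of the Sall1 line, against 39.2, 36.8, 55.4 and 32.1 CPM in IgG, and fell by 1.19 ± 0.25 on the log2 scale (adjusted p = 0.000336). It stood at 43.5, 18.4, 39.0 and 55.9 CPM in Cx3cr1 HA, against 47.7, 4.05, 51.6 and 51.2 CPM in IgG. One Cx3cr1 IgG library, replicate 2, was far below the other 3, and the value was 0.42 ± 0.64 (adjusted p = 0.580). That library stood under 50% of the lowest of the other IgG libraries for 11 of the 58 members with at least 20 CPM there, and over 2 times the highest for 0. Without it the Cx3cr1 comparison called 51 members higher and 4 lower, and Rpl39 (-0.86) and Rpl5 (-0.997) were then called lower.

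Several small subunit genes with other known roles passed the test in one line. Rpsa, which also serves as a laminin receptor, was at 350.4, 423, 309 and 349 CPM in the HA libraries of the Sall1 line, against 474, 536, 503 and 854 CPM in IgG, with a log2 fold change of -0.31 ± 0.17 (adjusted p = 0.110). It was at 559, 633, 502 and 583 CPM in Cx3cr1 HA, against 468, 696, 382 and 431 CPM in IgG, and rose by 0.61 ± 0.20 (adjusted p = 0.0147). The Sall1 groups did not overlap and the Cx3cr1 groups did, and the Cx3cr1 call was lost without HA replicate 2 (0.53) or IgG replicate 4 (0.51). Rps6, the S6 kinase substrate, was at 0.12 ± 0.21 in the Sall1 line and 0.79 ± 0.29 in the Cx3cr1 line (adjusted p = 0.0236), a call lost without HA replicate 1 (0.74). Rps27a, made as a ubiquitin fusion, was at -0.27 ± 0.20 and 0.87 ± 0.31. The Cx3cr1 call of Rps27a was lost without HA replicate 1 (0.64) or 2 (0.83), and the Sall1 value was called lower without IgG replicate 9 (-0.44). Rps2 did not pass in either line, at -0.26 ± 0.40 and -0.41 ± 0.25, though it was called lower in the Sall1 line without HA replicate 7 (-0.90).

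Of the large subunit, 27 of 40 tested members rose and 4 fell in the Sall1 line, and 26 of 38 rose and 1 fell in the Cx3cr1 line. The shares of all genes were 35.2% higher and 36.1% lower in the Sall1 line, and 28.6% and 36.0% in the Cx3cr1 line. Rpl37a, a zinc-binding protein gene (mm9 chr1:72757834-72760387), stood at 499, 291, 556 and 476 CPM in the HA libraries of the Sall1 line, against 119, 82.7, 148 and 106 CPM in IgG. The Cx3cr1 HA libraries had 343, 382, 658 and 604 CPM of it, against 135, 97.5, 109 and 123 CPM in IgG. Each HA library was above each IgG library, with log2 fold changes of 2.42 ± 0.22 and 2.49 ± 0.23. Rpl14 rose by 2.05 ± 0.17 and 1.93 ± 0.18, and Rpl36 by 2.65 ± 0.25 in the Sall1 line. Rpl35a rose by 2.32 ± 0.30 in the Cx3cr1 line, where Rpl17 was the member that fell. Rpl17 had 2 counts over the Cx3cr1 HA libraries and 89 over the IgG libraries, so it passed the count filter only through IgG. It passed that filter in only 4 of the 8 fits that left out a library. Rpl4 rose by 1.17 ± 0.14 and 1.39 ± 0.18, Rpl26 by 1.26 ± 0.21 and 1.58 ± 0.18, and Rpl11, which binds MDM2 together with RPL5, by 1.89 ± 0.25 and 1.93 ± 0.36. The Sall1 sign of Rpl26 turned with a length trend removed and the mouse as a block, as given below.

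The 4 large subunit members that fell in the Sall1 line were Rpl39, Rpl5, Rpl3 and Rpl23. Rpl39, a protein of the peptide exit tunnel (mm9 chrX:34622513-34625217), stood at 5.76, 4.96, 3.17 and 0.857 CPM in the HA libraries of the Sall1 line, against 100.4, 73.6, 125 and 39.8 CPM in IgG. Its log2 fold change there was -4.04 ± 0.44 (adjusted p = 7.76e-07). Rpl39 stood at 45.2, 18.4, 52.8 and 41.9 CPM in Cx3cr1 HA, against 97.2, 13.8, 111 and 95.9 CPM in IgG, with -0.57 ± 0.58 (adjusted p = 0.399). The Sall1 groups lay far apart, and the Cx3cr1 groups overlapped through IgG replicate 2, without which Rpl39 was called lower (-0.86). Rpl5 fell by 1.29 ± 0.34, Rpl3, at the peptidyl transferase centre, by 0.64 ± 0.19 and Rpl23 by 0.59 ± 0.19 in the Sall1 line. The Cx3cr1 values were -0.74 ± 0.47 for Rpl5 (called at -0.74 with the mouse as a block, adjusted p = 0.0416) and 0.15 ± 0.29 for Rpl3. Rpl38, needed for translation of Hox mRNAs in mouse embryos, rose by 0.93 ± 0.22 in the Sall1 line and was at 0.13 ± 0.32 in the Cx3cr1 line. Its sign turned in both lines with a length trend removed and the mouse as a block, as given below. Rpl10, a protein loaded late in the maturation of the large subunit, passed in both lines at 0.43 ± 0.19 and 0.78 ± 0.30. The Sall1 sign of Rpl10 turned in that fit as well. Both of its calls were lost in several fits: without Sall1 HA replicate 17 or 9 or Sall1 IgG replicate 17, 21 or 7 (0.31 to 0.42), and without Cx3cr1 HA replicate 2 or 3 or Cx3cr1 IgG replicate 3 or 4 (0.55 to 0.72).

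**Figure D3:**
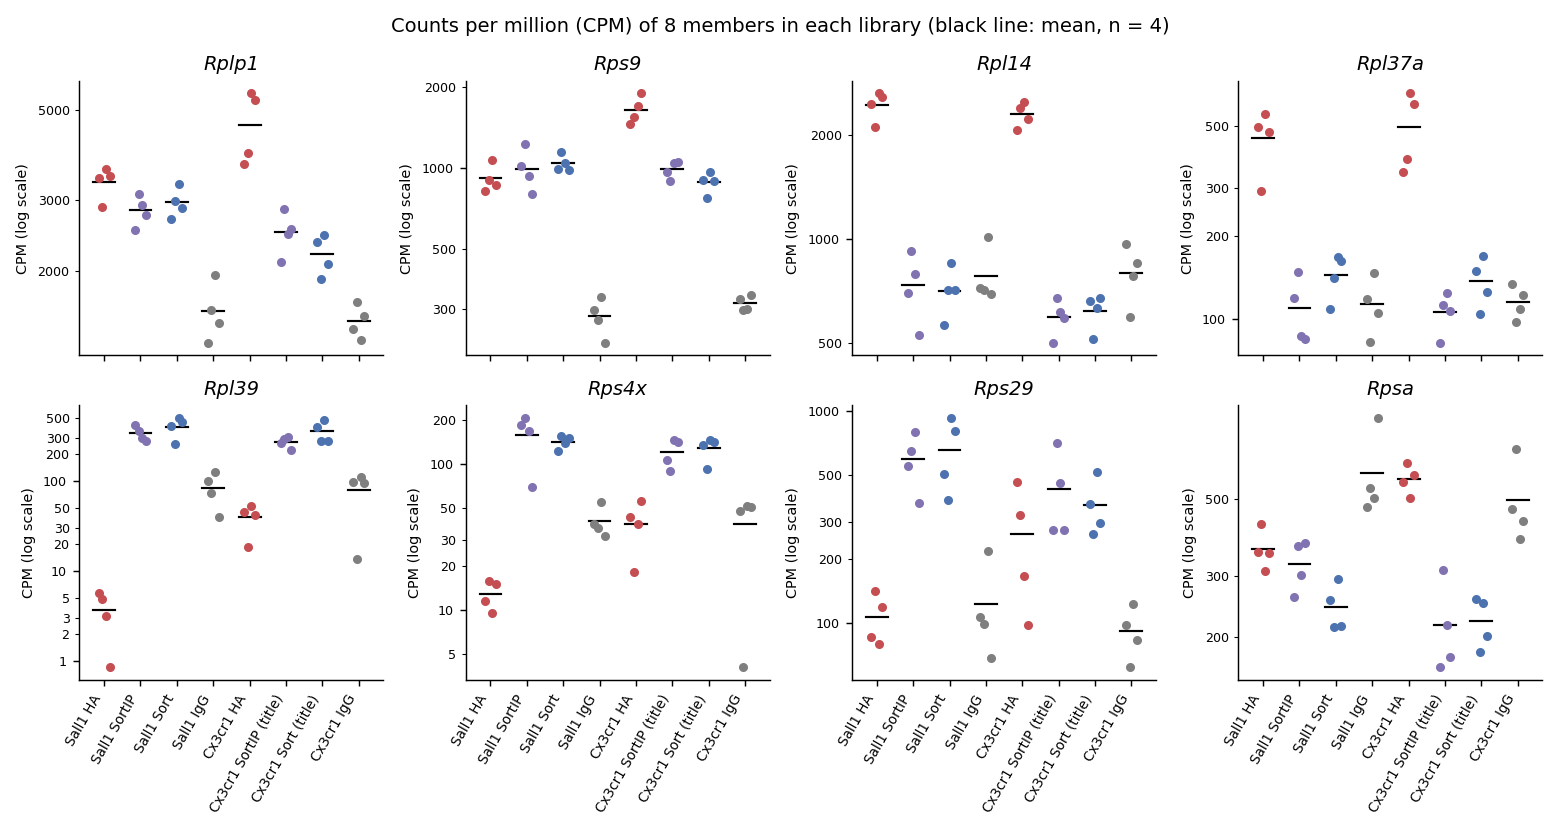
Level of 8 members in every library, in CPM on a log axis, by group, with a line for the mean of 4 libraries. Rpl39 in Sall1 HA lies at 0.857 to 5.76 CPM, below its level in every other library, whereas Rplp1 and Rps9 in both HA groups lie above the IgG groups.

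**Figure D4:**
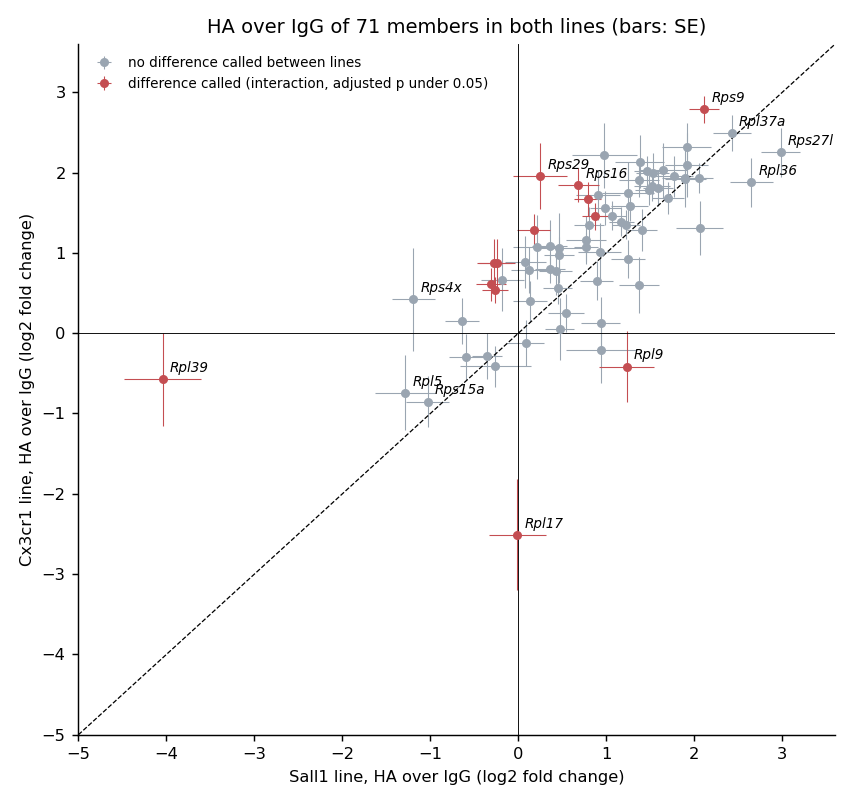
Log2 fold change of HA over IgG of 71 members in the Sall1 line on the horizontal axis and in the Cx3cr1 line on the vertical axis, with standard errors as bars, a dashed line where both are equal, and red points where the difference between lines passed the test. The points fall above the dashed line for 54 members, and Rpl39 lies far left at -4.04 in the Sall1 line.

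The difference between the lines was tested as the HA over IgG change in the Sall1 line minus that in the Cx3cr1 line. It was positive for 2 and negative for 12 of 75 members, beside 18.5% and 13.7% of all genes. By DESeq2 it was positive for 0 and negative for 20 members. The members' median was -0.38, against 0.15 for all genes, and the HA over IgG fold change was larger in the Cx3cr1 line for 54 of the 71 members tested in both. How many of all genes had the larger change in that line was not counted. The negative members included Rpl39 (-3.54 ± 0.88), Rpl12, Rps29, Rps16 (-1.22 ± 0.33), Rps27a, Rpl13, Rpsa (-0.95 ± 0.27), Rplp0 (-0.93 ± 0.26), Rpl13a (-0.84 ± 0.21), Rps9 (-0.72 ± 0.23) and Rps3. Rpl17 (2.47, adjusted p = 0.0193) and Rpl9 were positive by edgeR but not by DESeq2, at 2.40 (adjusted p = 0.0717) and 1.49 (adjusted p = 0.0558). With the mouse as a block and a length trend removed, neither of these passed (1.89 and 0.98) and 48 members were negative. Leaving out each library in turn gave between 10 and 16 calls. That of Rps27a (-1.21 ± 0.38) was lost without Cx3cr1 HA replicate 1 (-0.96). That of Rps3 (-0.63 ± 0.22) was lost without Cx3cr1 HA replicate 4, Cx3cr1 IgG replicate 3 or 4, Sall1 HA replicate 17 or 21, or Sall1 IgG replicate 17 or 7 (-0.61 to -0.56). That of Rpl9 (1.57 ± 0.56) was lost without Cx3cr1 HA replicate 1, 2 or 3, Cx3cr1 IgG replicate 4, Sall1 HA replicate 7, or Sall1 IgG replicate 17 or 9 (1.36 to 1.57). That of Rpl13 (-1.16 ± 0.40) was lost in 9 of the 16 fits and that of Rpl12 (-2.26 ± 0.85) in 12 of them. With the mouse as a block Rps29 (-1.54, adjusted p = 0.151) and Rpl12 (-2.25, adjusted p = 0.0603) did not pass. Rps4x was at -1.68 ± 0.71 (adjusted p = 0.0834), and was called without Cx3cr1 IgG replicate 2 (-1.32) and with the mouse as a block (-1.72, adjusted p = 0.00152).

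Rps29, a small zinc-binding protein gene (mm9 chr12:70258709-70260173), shows how uneven such a member was. It stood at 85.5, 142, 79.2 and 118 CPM in the HA libraries of the Sall1 line, against 107, 98.0, 219 and 67.7 CPM in IgG, with overlap and a log2 fold change of 0.25 ± 0.31. It stood at 463, 324, 165 and 97.8 CPM in Cx3cr1 HA, against 97.7, 61.5, 123 and 82.5 CPM in IgG, and rose by 1.96 ± 0.41 (adjusted p = 0.00167). The Cx3cr1 HA libraries spread widely and the lowest of them reached into the IgG range. The difference between lines was -1.78 ± 0.60, and it was not called without Cx3cr1 HA replicate 1 (-1.32) or 2 (-1.67), Cx3cr1 IgG replicate 2 (-1.64), or Sall1 HA replicate 17 (-1.68) or 7 (-1.67). The Sall1 change of Rps29 was called higher without IgG replicate 7 (0.62).

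Rpl13a, known from the interferon-responsive GAIT complex, was at -0.27 ± 0.15 in the Sall1 line and rose by 0.53 ± 0.16 in the Cx3cr1 line. Without Sall1 IgG replicate 17 the Sall1 value was called lower (-0.38). Rpl17 and Rpl12 rest on few reads. Rpl17 had 2 counts over the 4 Cx3cr1 HA libraries and 89 over the IgG libraries, a ratio of pooled CPM of 0.127 (95% interval 0.0152 to 0.474, counting error only), and its pooled level was 6.92 CPM in Sall1 HA, against 9.15 CPM in Sall1 IgG. Rpl12 had 34 counts in Sall1 HA and 29 in Sall1 IgG, a ratio of 1.15 (0.68 to 1.96), and 9 and 9 counts in the Cx3cr1 groups, a ratio of 5.67 (1.99 to 16.1).

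The HA libraries of both lines were also set against each other without their IgG controls. Here 4 of 71 members were higher in Sall1 HA and 29 were lower, beside 27.2% and 25.7% of all genes, and the members' median was -0.45 against 0.05 for all genes. The groups did not overlap for 4 higher members (31.5% of all genes) and 15 lower members (18.8% of all genes). Lower in Sall1 HA were the whole P stalk, with Rplp0 at -0.94 ± 0.18, Rplp2 at -0.76 ± 0.19 and Rplp1 at -0.67 ± 0.16, and 15 of 31 small and 11 of 37 large subunit members. Among them were Rpl39 (-3.59 ± 0.39), Rps4x (-1.76 ± 0.30) and Rps9 (-1.04 ± 0.16). Higher in Sall1 HA were Rps27l (0.91 ± 0.23), Rpl9 (1.24 ± 0.41), Rpl38 (0.73 ± 0.28) and Rps24 (0.57 ± 0.20). The call of Rpl9 was lost without Cx3cr1 HA replicate 1 (1.09), and Rpl9 passed the count filter in only 5 of the 8 fits that left out a library. The call of Rps24 was lost without Cx3cr1 HA replicate 1 (0.41) or Sall1 HA replicate 7 (0.53), and that of Rpl38 without Cx3cr1 HA replicate 1, 2 or 4 or Sall1 HA replicate 17 (0.67 to 0.75). Without scaling beyond library size 4 were higher and 17 lower, and with a length trend removed 0 were higher and 53 lower.

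Both ways of precipitating were compared within each line, as HA from homogenate over SortIP from sorted microglia. In the Sall1 line 18 of 74 members were higher in HA and 19 lower, beside 42.4% and 37.8% of all genes, and the median was -0.10. In the Cx3cr1 line by title 32 of 68 were higher and 9 lower, beside 32.6% and 37.5%, with a median of 0.42. By description these Cx3cr1 numbers were 31 higher and 12 lower, with a median of 0.35. Both splits depended on scaling. The Sall1 split was 27 higher and 17 lower under median-ratio size factors and 15 higher and 27 lower with none, and the Cx3cr1 split was 23 higher and 16 lower with none. With the mouse as a block and a length trend removed, 2 were higher and 60 lower in the Sall1 line, and 13 were higher and 26 lower in the Cx3cr1 line by title. Enzymatic digestion and sorting preceded SortIP and not HA, and microglial markers differed between the Sall1 groups as given above, so preparation and cell make-up cannot be told apart here.

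Single members differed in HA over SortIP, and whether those differences were unequal between the lines was not tested. The Cx3cr1 values here are by title. Grouped by description, the calls of the 8 members with a Cx3cr1 fold change below were the same. Rpl39 stood at 5.76, 4.96, 3.17 and 0.857 CPM in the HA libraries of the Sall1 line, against 423, 364, 298 and 281 CPM in SortIP, a log2 fold change of -6.31 ± 0.29 (adjusted p = 2.15e-19). It stood at 45.2, 18.4, 52.8 and 41.9 CPM in Cx3cr1 HA, against 268, 293, 314 and 223 CPM in SortIP by title, a log2 fold change of -2.52 ± 0.24. Every HA library lay below every SortIP library. Rps15a was lower in HA in both lines, at -2.37 ± 0.24 and -2.04 ± 0.29, and Rps4x (-3.39 ± 0.27) and Rps29 (-2.30 ± 0.21) were lower in the Sall1 line. Rps29 levels overlapped in the Cx3cr1 line, at 463, 324, 165 and 97.8 CPM in HA, against 273, 704, 457 and 273 CPM in SortIP by title. Rpl30 (-2.13 ± 0.42) and Rps28 (-1.36 ± 0.25) were lower in the Cx3cr1 line. Rpl14 went the other way, at 2460, 2108, 2646 and 2591 CPM in the HA libraries of the Sall1 line, against 696, 924, 791 and 527 CPM in SortIP, a log2 fold change of 1.91 ± 0.17. Rpl14 stood at 2066, 2398, 2505 and 2228 CPM in Cx3cr1 HA, against 499.6, 672, 615 and 589 CPM in SortIP by title, a log2 fold change of 2.19 ± 0.17. Rpl37a was higher in HA as well, by 2.25 ± 0.21 and 2.45 ± 0.21. Rpl36 was higher by 1.55 ± 0.25 in the Sall1 line and Rpl35a by 1.87 ± 0.25 in the Cx3cr1 line. Rplp1 was higher by 1.12 ± 0.17 in the Cx3cr1 line and by 0.40 ± 0.15 in the Sall1 line, where the call was lost without HA replicate 17, 7 or 9 or SortIP replicate 7 or 9 (0.32 to 0.37).

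Within sorted microglia, the precipitate was compared with the unprecipitated RNA. In the Sall1 line 5 of 70 members were higher in SortIP and 0 lower, beside 5.45% and 5.08% of all genes, so the members' share of calls was near the background. Their median log2 fold change was 0.15, against 0.00 for all genes. At an unadjusted p under 0.05 edgeR had 13 higher and 1 lower, and DESeq2 called 4 higher and 0 lower. All genes were not counted at the unadjusted threshold, so the 13 have no background beside them. The 5 called by edgeR included Rps4l, Rpl29 (0.60 ± 0.16), Rpsa (0.55 ± 0.16) and Rpl8 (0.46 ± 0.13). Rps4l stood at 93.9, 76.0, 114 and 136 CPM in SortIP, against 57.1, 69.5, 77.5 and 64.6 CPM in Sort, a log2 fold change of 0.83 ± 0.19 (adjusted p = 0.00780), and was called in every fit that left out 1 library. The calls of Rpl29, Rpsa and Rpl8 were lost without one or more of Sort replicates 17, 21, 7 and 9 and SortIP replicates 21, 7 and 9, with values from 0.42 to 0.58, and no scaling left 1 call.

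In the Cx3cr1 line by title 1 of 70 members was higher in SortIP and 1 lower, beside 6.36% and 6.45% of all genes. Rps4l stood at 69.8, 54.9, 53.6 and 46.2 CPM in SortIP, against 120, 89.2, 89.7 and 75.3 CPM in Sort, a log2 fold change of -0.86 ± 0.19 (adjusted p = 0.00689). The groups did not overlap, and Rps4l thus moved opposite to the Sall1 line by title. The microglial markers turned in the same way, with 6 of 10 higher in SortIP and 0 lower in the Sall1 line (median 0.54), and 0 higher and 6 lower in the Cx3cr1 line by title (median -0.48). By description its Cx3cr1 value was 0.86, the direction of the Sall1 line. Rpl6 was higher by title at 0.83 ± 0.25, a call lost without Sort replicate 1, 2 or 4 or SortIP replicate 1, 2 or 4 (0.61 to 0.90) and with the mouse as a block (0.81, adjusted p = 0.0597), and its value by description was -0.83.

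Sorted microglia were set against whole-brain IgG precipitates in the Sall1 line to describe the members' levels without anti-HA. There 45 of 71 members were higher in Sort and 2 lower, beside 37.1% and 41.1% of all genes, with a median of 0.62 against -0.07. Under median-ratio size factors 36 were higher and 5 lower. The other genes of the shortest 10% had a median of 0.12, and 58 of 71 members lay above the median of their 10% length class. Rps29 (2.47 ± 0.37), Rpl30 (2.40 ± 0.35), Rpl39 (2.29 ± 0.31) and Rps27l (2.28 ± 0.22) were highest, and Rps9 (1.88 ± 0.17) and Rplp1 (0.89 ± 0.15) rose as well. Rpl39 stood at 409, 256, 505 and 449 CPM in Sort, against 100.4, 73.6, 125 and 39.8 CPM in IgG. Every Sort library lay above every IgG library, whereas in Sall1 HA this member lay below IgG. Rpsa (-1.29 ± 0.20) and Rps2 (-0.78 ± 0.24) were lower in Sort. The Sort and IgG libraries differ in preparation as well as in cells.

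Between the lines, the sorted libraries of each mouse were summed so that the label conflict drops out. Of 75 members 3 were higher in the Sall1 line and 0 lower, beside 1.62% and 1.05% of all genes, with a median of 0.26. These calls were lost with a length trend removed. Of 6 border macrophage markers 3 could be tested in the same comparison and all 3 were higher in the Sall1 line (median 1.93). That list took 0.0609% of counts in SortIP and 0.0704% in Sort of the Sall1 line, against 0.0370% and 0.0383% in those groups of the Cx3cr1 line by title, and its part in the member results was not tested. At an unadjusted p under 0.05 edgeR had 26 higher and 0 lower, and DESeq2 called 4 higher and 0 lower. All genes were not counted at the unadjusted threshold, so the 26 have no background beside them. Those called by edgeR were Rps27l (0.61 ± 0.14), Rpl35 (0.50 ± 0.12) and Rps15 (0.44 ± 0.09), the protein that lies near the decoding site. Rps27l was lost without Cx3cr1 mouse 1 (0.64) or 4 (0.62) or Sall1 mouse 17 (0.56) or 21 (0.60). Rpl35 was lost without Cx3cr1 mouse 1 (0.48) or 4 (0.43) or Sall1 mouse 17 (0.53), 21 (0.52) or 7 (0.44). Rps15 was lost without Cx3cr1 mouse 1 (0.42) or Sall1 mouse 17 (0.44) or 7 (0.42). In the IgG libraries 0 of 72 members were called between the lines by edgeR or DESeq2. By edgeR 0.00863% of all genes were called higher and 0.00% lower. At an unadjusted p under 0.05 in edgeR, 2 members were higher and 0 lower.

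Sequence sharing, length and tract were set beside the HA over IgG changes. The 32 tested members with at most 50% of stretches shared had 24 higher and 3 lower calls in the Sall1 line and a median of 0.93 against 0.91 in the other 42. In the Cx3cr1 line 32 such members had 26 higher and 1 lower, with a median of 1.42 against 1.02 in the other 39. Members with a pyrimidine tract within 5 bases of the annotated start had a median of 0.90 against 0.87 without one in the Sall1 line, and 1.11 against 1.08 in the Cx3cr1 line. The grouping follows the letters near the annotated start, and a member without a tract there can have one elsewhere. These medians therefore do not compare TOP mRNAs with other mRNAs. With the tract at the start itself, 13 members had a median of 0.93 against 0.83 for those without one in the Sall1 line, and 1.35 against 1.07 in the Cx3cr1 line. As a description over 74 and 71 members, the fold change had a Spearman's rho of -0.39 and -0.26 with length and of 0.26 and 0.36 with GC content. Over all genes tested, rho with length was -0.53 and -0.37.

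The rare paralogs stayed rare. Rpl10l, a testis gene, had 0 counts among 46334789 gene counts in all 32 libraries, which allows up to 0.0647 CPM by a floor of 3 counts. Rpl3l, a heart and skeletal muscle gene, had 17 counts in all, with 6 in Sall1 HA, 7 in Sall1 IgG and 4 in Cx3cr1 IgG. Rpl39l had pooled counts of 2, 6, 7 and 1 in Sall1 HA, SortIP, Sort and IgG, and of 6, 21, 15 and 0 in the same Cx3cr1 groups by title. Its pooled level was 0.206 CPM in Sall1 HA and 3.69 CPM in Cx3cr1 HA, a ratio of 0.0559 (95% interval 0.00551 to 0.312, counting error only). The 0 counts in Cx3cr1 IgG allow up to 0.326 CPM. Of paralogs outside the rule, Rpl7l1 rose by 1.55 and Rpl36al by 1.60 in the Sall1 line, and by 1.41 and 2.00 in the Cx3cr1 line. With the mouse as a block and a length trend removed the Sall1 value of Rpl36al was -0.02 (adjusted p = 0.922).

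Other genes of the translation machinery did not move as one with the members. Rpl22, the tagged gene, rose by 1.63 in the Sall1 line and by 1.56 in the Cx3cr1 line on the log2 scale of HA over IgG. Fau, which encodes a ubiquitin-like fusion to a small subunit protein, rose by 0.80 and 1.95, although without scaling its Sall1 value of 0.38 missed the threshold. With the mouse as a block and a length trend removed the Sall1 value of Fau was -0.54 and was called lower (adjusted p = 0.0059). Rack1, a scaffold on the small subunit, fell by 0.35 in the Sall1 line and rose by 1.00 in the Cx3cr1 line, a rise lost with the block and a length and GC trend (0.36, adjusted p = 0.0569). Of 20 other TOP genes tested in the Sall1 line 7 rose and 8 fell, and of 19 in the Cx3cr1 line 9 rose and 3 fell, with medians of 0.07 and 0.62. Of all genes 35.2% were called higher and 36.1% lower in the Sall1 line, so the TOP counts there were near the background. The Cx3cr1 shares of all genes were 28.6% and 36.0%. With no scaling beyond library size 1 rose and 10 fell in the Sall1 line, and 3 rose and 4 fell in the Cx3cr1 line. Pabpc1, the poly(A) binding protein gene, fell by 1.99 in the Sall1 line and was at 0.36 in the Cx3cr1 line, where it was called higher with the block and a length trend (0.57, adjusted p = 0.0327). Of the ribosome assembly factors 6 of 27 rose and 11 fell in the Sall1 line, and 8 of 26 rose and 5 fell in the Cx3cr1 line, beside the same shares of all genes. With no scaling these became 4 higher and 13 lower, and 6 higher and 9 lower. Npm1, a nucleolar chaperone, fell by 3.76 and by 2.37.

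Mitochondrial ribosomal protein mRNAs differed between the lines in the other direction, as did short mRNAs outside the members. Of 77 tested 58 rose and 10 fell in the Sall1 line, and of 73 tested 32 rose and 7 fell in the Cx3cr1 line, with medians of 1.17 and 0.44. Beside these, 35.2% of all genes were called higher and 36.1% lower in the Sall1 line, and 28.6% and 36.0% in the Cx3cr1 line. With no scaling beyond library size 44 rose and 13 fell in the Sall1 line, and 20 rose and 18 fell in the Cx3cr1 line. In the test of the difference between lines 27 of 77 were positive and 0 negative by edgeR, with 1 negative at an unadjusted p under 0.05 and 1 called negative by DESeq2, where the cytosolic members had 2 and 12 of 75. Of all genes 18.5% were positive and 13.7% negative in that test. In Sall1 HA against Cx3cr1 HA, 35 of 70 mitochondrial ribosomal protein genes were higher and 0 lower by edgeR, 0 lower at an unadjusted p under 0.05 and 0 lower by DESeq2, where the cytosolic members had 4 and 29 of 71. Of all genes 27.2% were higher and 25.7% lower there. Genes outside the members in the shortest 10%, with the mitochondrial list not taken out, had medians of 0.49 in the line difference and 0.49 here. The mitochondrial list had 0.64 and 0.60, and no fit with a length trend is given for it.

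**Figure D5:**
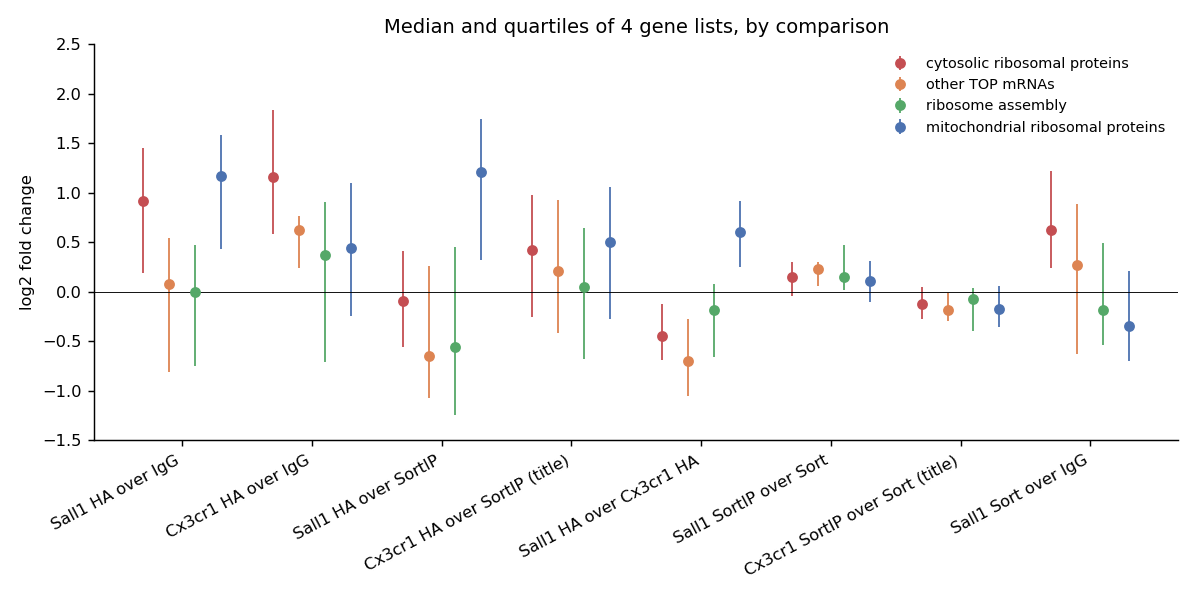
Median log2 fold change of 4 gene lists in 8 comparisons, with bars from the lower to the upper quartile of the genes. In HA over IgG the median of the cytosolic members is 0.91 in the Sall1 line and 1.16 in the Cx3cr1 line, and that of the mitochondrial ribosomal proteins 1.17 and 0.44.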

How the data were processed

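Raw read counts over exons per gene, with no normalization, were deposited by the authors for 24411 genes in 32 libraries. The mouse build mm9 and the tools HOMER, HISAT 0.1.5 and bcl2fastq are named in the submitters' processing notes. The members and all gene lists were chosen with earlier results of these data known. Counts were scaled with TMM, filtered with filterByExpr (minimum count 10) and tested with edgeR 4.0.16 (quasi-likelihood, robust, R 4.3.3), with Benjamini-Hochberg adjustment over all genes tested and a threshold of 0.05. CPM are counts per 1000000 gene counts of a library. Libraries of the same number within a line come from the same mouse, per the design text, so the numbers pair the samples. The deviations of 48 such pairs of libraries correlated at -0.125 to 0.27, with 16 pairs over 0.1. Alternatives were median-ratio size factors, no scaling, DESeq2 1.42.0, no filter, the mouse as a block, length trends (lowess span 0.3), the grouping by description and leaving out each library. A joint length and GC trend and the subset of low sequence sharing were added after the data had been seen. Named members were 20 fixed genes, the paralogs, the 3 members of highest level and, per comparison, the 3 called members at either end with a mean of at least 20 CPM. Members called between the lines, Rpl12, Rpl17, Rps16 and others below that level were named after their values were seen. Replicate pairs differed beyond sampling noise, at 1.58 to 22.5 units of chi-square for each degree of freedom. PCR copies carry no molecular identifiers, so intervals and floors of 3 counts cover counting error only. The tests were tried on simulated data before use. Values of some members are not reported here, and the counts include them.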

Additional observations from a re-analysis of the deposited data

Results flagged for a closer look

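Of 72 sets of 4 libraries examined, 6 had a library far from the other 3. The sets were the members' shares and levels chosen for printing, so a chance rate of about 1 in 20 does not apply. Cx3cr1 IgG replicate 2 stood apart for Rpl39 at 13.8 CPM, for Rps4x at 4.05 CPM, both below the others, and for Rps27l at 20.2 CPM, above them. Sall1 IgG replicate 9 was high for Rpsa at 854 CPM. Rpl39l stood apart in Sall1 HA replicate 17 at 0.823 CPM and in Sall1 IgG replicate 9 at 0.247 CPM, each the only library of its group with a count. The rule flags any such library, however few its counts.

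The change of HA over IgG differed between the lines, Sall1 minus Cx3cr1 on the log2 scale, for 14 members by edgeR's test of the difference. Among these it was lower in the Sall1 line for Rpl39 (-3.54), Rpl12 (-2.26), Rps29 (-1.78), Rps16 (-1.22), Rps27a (-1.21), Rpl13 (-1.16), Rpsa (-0.95), Rplp0 (-0.93), Rpl13a (-0.84), Rps9 (-0.72) and Rps3 (-0.63). It was higher in the Sall1 line for Rpl17 (2.47) and Rpl9 (1.57), which did not pass by DESeq2. Of the 16 fits that left out a library, the call was lost in 12 for Rpl12, 9 for Rpl13 and 7 for Rps3. It was lost in 7 for Rpl9, 5 for Rps29 and 1 for Rps27a. With the mouse as a block Rpl12 and Rps29 did not pass, and Rpl12 and Rpl17 rest on few reads. Markers of microglia, border macrophages, astrocytes and oligodendrocytes differed between the HA groups of the lines as well, and their part in this was not tested.

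Rps4l moved in opposite directions in SortIP over Sort, at 0.83 in the Sall1 line and -0.86 in the Cx3cr1 line by title. This difference was not tested, and the Cx3cr1 sign turns if those libraries are grouped by description. The microglial marker list had the same opposite signs (medians 0.54 and -0.48).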

How the results depend on the processing

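Depth limited the Cx3cr1 HA group most, and members of few counts can change calls with 1 library. The treatment of multiply mapped reads could not be varied. Causes of the changes below were not tested. With the mouse as a replicate block, members called were 57 in Sall1 HA over IgG, 57 in Cx3cr1 HA over IgG, 14 in the difference between lines, 38 and 41 in HA over SortIP, 45 in Sall1 Sort over IgG, 6 in Sall1 SortIP over Sort and 3 in Cx3cr1 SortIP over Sort. The block changed no call of a named member other than those given with the results.

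With the block and a length trend, calls became 45 (10 higher, 35 lower) in Sall1 HA over IgG, 48 (0 and 48) in the difference between lines, 62 (2 and 60) in Sall1 HA over SortIP and 39 (13 and 26) in Cx3cr1 HA over SortIP. With the GC trend added they were 52 (11 and 41), 48 (0 and 48), 64 (4 and 60) and 43 (9 and 34), and 3 in Sall1 and 5 in Cx3cr1 SortIP over Sort. Sall1 HA over Cx3cr1 HA had 53 calls with a length trend, 54 with GC added and 21 with no scaling, and the sorted sums had 0 with either trend. No scaling left 1 call in Sall1 SortIP over Sort. With no low-count filter the difference between lines had 9 calls and Cx3cr1 SortIP over Sort had 4. Between lines, Sort alone gave 9 calls by title and 1 by description, and SortIP alone gave 7 by title.

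Signs turned in Sall1 HA over IgG under the length trend and under the length and GC trend for Rplp1 (-0.19, -0.37), Rplp2 (-0.36, -0.61), Rps29 (-1.46, -1.71), Rps19 (-0.28, -0.30), Rpl26 (-0.27, -0.45), Rpl38 (-0.90, -1.15), Rps6 (-0.64, -0.81), Rpl10 (-0.86, -1.05), Rps14 (-1.02, -1.28) and Rpl9 (-0.17, -0.27), and for Rplp0 under the joint trend (-0.23). In Cx3cr1 HA over IgG they turned for Rpl13a (-0.0739, -0.23) and Rpl38 (-0.89, -1.05), and under the joint trend for Rps15a (0.0945) and Rpl10 (-0.15). In HA over SortIP they turned for Rpl36 (-0.0041, -1.17) and Rplp1 (-1.10, -1.75) in the Sall1 line, and under the joint trend for Rplp1 in the Cx3cr1 line (-0.52). By description Rpl6 was -0.83 and Rps4l 0.86 in Cx3cr1 SortIP over Sort.

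Without the 5 members of most counts, the members' share was 1.35% in Sall1 HA, 1.59% in SortIP, 1.60% in Sort and 0.986% in IgG, and 1.65% in Cx3cr1 HA, 1.36% in SortIP, 1.32% in Sort and 0.887% in IgG. With the 20 genes of most counts, members among them, left out of both sums it was 2.16% in Sall1 HA and 1.25% in Cx3cr1 IgG, and within the SD of the mice in the other groups.

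Leaving out 1 library gave 49 to 57 calls in Sall1 HA over IgG, 46 to 55 in Cx3cr1 HA over IgG, 10 to 16 in the difference between lines, 24 to 29 in Sall1 HA over Cx3cr1 HA, 34 to 43 and 34 to 42 in HA over SortIP, 1 to 6 and 1 to 3 in SortIP over Sort, 38 to 49 in Sall1 Sort over IgG and 0 to 4 in the sorted sums.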

Other observations

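In Sall1 HA over SortIP the mitochondrial ribosomal protein mRNAs had 53 of 75 higher and 10 lower, with a median log2 fold change of 1.21, where the cytosolic members had 18 and 19 of 74. Of all genes 42.4% were higher and 37.8% lower, and genes outside the members in the shortest 10% had a median of 1.17. In Sall1 Sort over IgG the order was the reverse, with 8 of 75 mitochondrial genes higher and 26 lower and a median of -0.35, where 45 of 71 cytosolic members were higher and 2 lower. Of all genes 37.1% were higher and 41.1% lower in Sall1 Sort over IgG, and genes outside the members in the shortest 10% had a median of 0.12. Under median-ratio size factors the mitochondrial counts there were 5 higher and 40 lower.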
